A study of Mus musculus with 15 samples.

Results

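Genomic imprinting silences 1 parental copy of a gene, and 10 mouse genes of this kind that act on growth were followed across newborn brown fat and inguinal white fat of mice with and without IL-33. They were chosen by name, with earlier results of these data known. Nnat, Mest, Igf2, H19, Dlk1, Peg3, Plagl1, Cdkn1c, Grb10 and Peg10 each matched exactly 1 of the 37991 Ensembl identifiers in the count table. The 15 RNA-seq libraries were from C57BL/6 mice. Brown adipose tissue at postnatal day 0.5 gave 4 libraries labelled knockout (IL-33-/-) and 4 wild-type libraries. Inguinal white adipose tissue at postnatal day 24, around weaning, gave 3 knockout libraries (IL-33-/-, numbered 2 to 4) and 4 wild-type libraries. The knockout is given by the labels for the whole animal, with no tissue restriction named. IL-33 is a cytokine released by tissue cells that acts through its receptor ST2, and the series asks what the pair does for brown and beige fat. Depot and age were changed together, so brown and inguinal fat cannot be separated from newborn and weaning.

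Most imprinted genes sit in clusters in which a methylated control region decides which parental chromosome is transcribed. In mice, Nnat, Mest, Igf2, Dlk1, Peg3, Plagl1 and Peg10 are read mainly from the paternal copy, and H19, Cdkn1c and, in most tissues, Grb10 from the maternal copy. Many of these genes are high in the fetus and are turned down after birth as growth slows, and Mest and Dlk1 are widely used to follow fat cell growth and fat cell precursors. The libraries were not separated by parental allele, so every level below is the sum of both copies.

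Totals ran from 33782634 to 40802095 counts in the labelled knockout brown libraries, from 31661512 to 41926108 in wild-type brown, from 30835337 to 38765633 in knockout inguinal and from 26059635 to 53923009 in wild-type inguinal libraries. Levels are given as CPM, counts relative to the size of the library, scaled between libraries by the trimmed mean of M-values (TMM). All 10 genes had enough counts to be tested in every comparison. Il33 itself was read at 0.346, 0.471 and 0.0791 CPM in knockout inguinal libraries, against 3.45, 4.61, 3.81 and 3.55 CPM in wild-type ones, with no overlap. In newborn brown fat it was read at 0.413, 1.75, 1.41 and 0.594 CPM in the libraries labelled knockout, against 1.82, 3.21, 2.01 and 1.73 CPM in wild type. The brown groups overlapped, and Il33 missed the threshold, at a log2 change of -1.08 (edgeR adjusted p = 0.229), so the labels of brown libraries were not settled by Il33 and they are called labelled knockout throughout. Labelled knockout brown library 1 stood apart from the other 3 of its group: on the first principal component of the brown libraries, which held 39.6% of the variance, it lay at -38.1, on the side of wild type at -29 to -21.1 and away from 51.3, 24.7 and 58.8 in labelled knockout libraries 2 to 4. On the second component, with 19.7% of the variance, it lay at 50.4, against -39.1 to 10.8 in the other 7 brown libraries, so it stood apart from wild type as well. The summed CPM of 14 brown adipocyte markers was 5250 to 8031 in labelled knockout and 6618 to 10949 in wild-type brown libraries, and 3523 to 4579 in knockout and 1823 to 2670 in wild-type inguinal libraries, with no marker at 0 in any group. Skeletal muscle markers summed to 3003 to 4997 CPM in labelled knockout and 2990 to 5074 CPM in wild-type brown libraries, so both brown groups contained muscle RNA.

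Promoter sequence was matched for 7 of the 10 genes, from RefSeq on GRCm38.p6, as 300 bases from 250 before to 50 after each annotated start. The 13 stretches of these 7 genes held 2 to 45 CG pairs, the pair that DNA methylation acts on, with a median of 14. The median over all 32851 stretches in the same table was 7. Nnat and Dlk1 are shown because they moved in opposite directions in knockout inguinal fat, and Mest because it is the member most used to follow fat growth. Capitals mark each CG pair, and all 3 genes lie on the forward strand. The Nnat stretch is chr2:157559828-157560127 and has 17 CG pairs, the Mest stretch shown is chr6:30737800-30738099 and also has 17, and the Dlk1 stretch is chr12:109452573-109452872 and has 9. Mest has 3 annotated stretches: another nearly coincides with the one shown and has 17 CG pairs, and chr6:30733256-30733555, upstream, has 8. The stretch with the more CG pairs was chosen.
Nnat: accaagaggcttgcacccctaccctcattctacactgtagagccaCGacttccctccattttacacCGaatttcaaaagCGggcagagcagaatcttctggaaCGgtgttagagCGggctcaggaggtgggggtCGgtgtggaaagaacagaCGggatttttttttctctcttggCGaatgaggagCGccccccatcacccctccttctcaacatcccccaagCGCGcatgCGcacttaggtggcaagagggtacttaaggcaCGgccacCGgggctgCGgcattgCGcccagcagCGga
Mest: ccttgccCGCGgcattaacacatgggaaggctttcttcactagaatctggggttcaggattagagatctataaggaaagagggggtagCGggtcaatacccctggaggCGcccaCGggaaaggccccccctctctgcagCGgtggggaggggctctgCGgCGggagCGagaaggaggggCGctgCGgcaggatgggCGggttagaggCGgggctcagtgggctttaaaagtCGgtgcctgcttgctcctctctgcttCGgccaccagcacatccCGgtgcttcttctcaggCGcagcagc
Dlk1: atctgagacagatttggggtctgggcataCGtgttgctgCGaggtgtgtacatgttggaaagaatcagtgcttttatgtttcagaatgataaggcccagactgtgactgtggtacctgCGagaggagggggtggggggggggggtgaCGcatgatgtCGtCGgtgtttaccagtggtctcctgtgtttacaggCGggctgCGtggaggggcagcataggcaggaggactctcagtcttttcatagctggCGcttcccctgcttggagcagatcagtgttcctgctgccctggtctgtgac
The letters GGGGCCCC, a core of the GC-rich element bound by the zinc finger protein PLAGL1, read the same on both strands and were present in 1 of the 13 stretches, that of Peg3. They were present in 1.08% of all stretches.

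Knockout inguinal fat differed from wild type in 6 of the 10 imprinted genes. Igf2 and Dlk1, growth-promoting ligands of the fetus, were higher, and Nnat, Cdkn1c, Grb10 and Peg10 were lower. Nnat showed the widest gap, at a fitted 25.4% of its wild-type level. Over all 15710 genes tested, 28.6% passed at an adjusted p below 0.05, 15.3% higher and 13.3% lower, and the 6 of 10 is to be read against that share. The 10 genes were chosen with earlier results of these data known, so a count above that share is not a result about imprinted genes. The 6 genes were also those whose knockout and wild-type libraries did not overlap, as 36.9% of all tested genes did. The median log2 change was -0.18 over the 10 genes and -0.02 over all genes. Changes are from edgeR's quasi-likelihood test, with Benjamini-Hochberg adjustment over all genes, and are log2 of knockout over wild type with their standard error (SE). Labels do not say whether libraries came from separate animals, so the p-values measure the spread between these libraries.

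**Figure D1:**
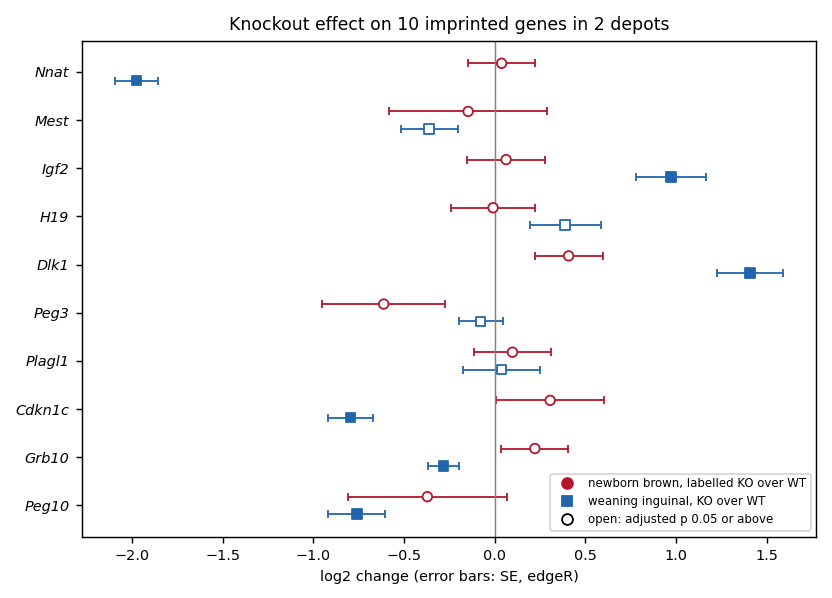
The log2 change of each of the 10 genes (knockout over wild type, bars show SE) is plotted for newborn brown fat (red circles, labelled knockout, 4 libraries against 4) and weaning inguinal fat (blue squares, 3 against 4). Filled symbols passed at an adjusted p below 0.05: 6 blue squares, from -1.98 for Nnat to 1.41 for Dlk1, and no red circle.

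Nnat encodes neuronatin, a small membrane proteolipid of the endoplasmic reticulum known from developing brain, pancreatic islets and fat. Its level was 148, 137 and 189 CPM in the 3 knockout inguinal libraries, against 609, 679, 604 and 611 CPM in the 4 wild-type libraries. Every knockout library lay below every wild-type library. The log2 change was -1.98 (SE 0.12, edgeR adjusted p = 2.26e-07), the fifth smallest p among all genes tested. Leaving out any 1 library kept it between -2.11 and -1.88. Nnat lies inside an intron of Blcap, on the opposite strand. Blcap, a ubiquitous small protein gene of the same imprinted domain, had 135, 133 and 148 CPM in knockout and 183, 185, 198 and 195 CPM in wild-type libraries. Blcap also fell, by 0.44 (SE 0.08, edgeR adjusted p = 0.00166), which is a smaller step than that of Nnat. The library kit marks strand, but the strand setting of the counting was not given in the sources used here, so reads of these overlapping genes may be shared.

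Igf2, the fetal insulin-like growth factor, was read at 78.4, 70.8 and 47.0 CPM in knockout inguinal libraries, against 29.0, 30.6, 30.4 and 44.3 CPM in wild type. The groups did not overlap, although the lowest knockout library and the highest wild-type library were close. The log2 change was 0.97 (SE 0.20, edgeR adjusted p = 0.00498), and without knockout library 2 it was 0.81 with an adjusted p of 0.0504. H19, the non-coding RNA next to Igf2 that is transcribed from the other parental copy, stood at 246, 216 and 180 CPM in knockout and 141, 152, 131 and 234 CPM in wild-type libraries. Wild-type library 4 lay inside the knockout range and the other 3 below it. H19 missed the threshold, at 0.39 (SE 0.19, edgeR adjusted p = 0.167), and without wild-type library 4 it was 0.61 (adjusted p = 0.00437).

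Dlk1, a membrane protein of preadipocytes that holds back fat cell formation, had 20.6, 16.3 and 13.6 CPM in knockout and 6.07, 4.84, 6.22 and 8.31 CPM in wild-type inguinal libraries. All knockout libraries lay above all wild-type libraries, with a mean 2.65 times as high. The log2 change was 1.41 (SE 0.18, edgeR adjusted p = 1.25e-04). Its maternally expressed neighbour Meg3, a non-coding RNA, had 146, 136 and 158 CPM in knockout and 114, 120, 109 and 118 CPM in wild type. Meg3 rose as well, by 0.36 (SE 0.09, edgeR adjusted p = 0.00615), with no overlap.

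Comparing each ligand with its oppositely imprinted neighbour inside the same library removes library scaling. The log2 ratio of Igf2 to H19 averaged -1.73 ± 0.18 in knockout inguinal libraries (SD, n = 3) and -2.28 ± 0.12 in wild-type ones (SD, n = 4). The log2 ratio of Dlk1 to Meg3 averaged -3.14 ± 0.36 in knockout (SD, n = 3) and -4.20 ± 0.33 in wild type (SD, n = 4). Both ratios were higher in every knockout library than in any wild-type library. Their differences of 0.55 and 1.06 each reached p = 0.0286 in a two-sided exact permutation test, the smallest p that 3 libraries against 4 allow. Adjusted over the 4 ratio tests by Benjamini-Hochberg, both exact permutation values became 0.0571, which is above 0.05. In newborn brown fat the Igf2 to H19 ratio averaged -1.36 ± 0.09 in labelled knockout and -1.46 ± 0.15 in wild type, and the groups overlapped (exact permutation p = 0.314). The Dlk1 to Meg3 ratio there averaged -0.80 ± 0.27 in labelled knockout and -1.23 ± 0.20 in wild type, with a difference of 0.43 and overlap (SD, n = 4 each, exact permutation p = 0.0857, adjusted 0.114). Without labelled knockout library 2, which lay within the wild-type range, that difference was 0.55 and the groups no longer overlapped. Its exact permutation p was then the smallest that 3 libraries against 4 allow, the same as for the inguinal ratios. The adjusted exact permutation p of 0.0381 is therefore not a stronger result than their 0.0571.

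**Figure D2:**
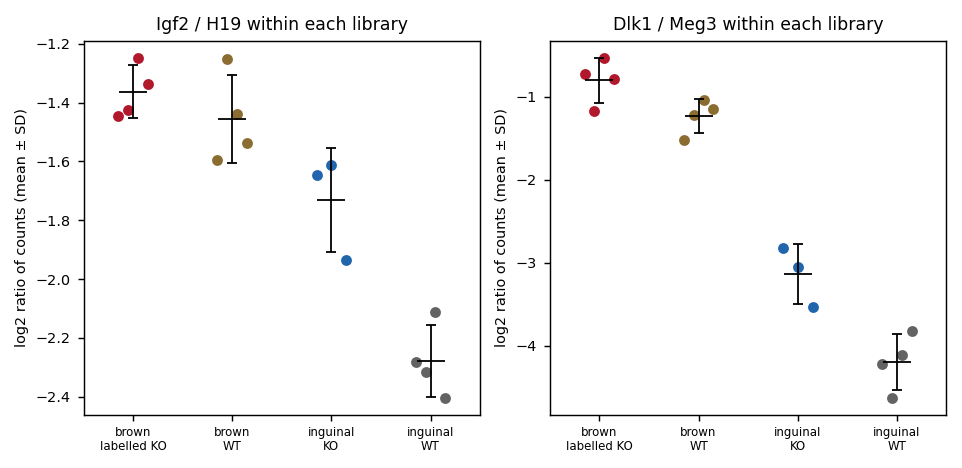
Each point is the log2 ratio of counts of Igf2 to H19 (left) or Dlk1 to Meg3 (right) in 1 library, with the group mean and SD in black. In both panels the 3 knockout inguinal libraries lie above the 4 wild-type inguinal libraries, and the brown groups lie higher than both and overlap.

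Cdkn1c and Grb10 restrain growth: the Cdkn1c protein p57 blocks the cell cycle, and Grb10 is an adaptor that dampens insulin and IGF receptor signalling. Cdkn1c was read at 10.3, 9.14 and 11.3 CPM in knockout inguinal libraries, against 18.1, 20.7, 16.1 and 16.9 CPM in wild type. No knockout library reached the lowest wild-type library, and the gene fell by 0.80 (SE 0.12, edgeR adjusted p = 4.13e-04). Grb10 was read at 130, 131 and 141 CPM in knockout and 155, 171, 157 and 177 CPM in wild type, a narrow gap with little spread on either side. It fell by 0.28 (SE 0.09, edgeR adjusted p = 0.0242), and the call was lost without wild-type library 2, wild-type library 4 or knockout library 3, at adjusted p-values of 0.0693, 0.0667 and 0.0805.

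Peg10, a retrotransposon-derived gene needed in the placenta, had 8.67, 10.3 and 10.7 CPM in knockout and 14.6, 14, 16.7 and 22.1 CPM in wild-type inguinal libraries. Again no knockout library reached the lowest wild-type library, and Peg10 fell by 0.76 (SE 0.16, edgeR adjusted p = 0.00285). In a fit of all 4 groups together, with 1 estimate of spread, the calls of Cdkn1c (adjusted p = 0.0728), Grb10 (0.254) and Peg10 (0.241) were not reached, while Nnat, Igf2 and Dlk1 passed.

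Mest, an endoplasmic reticulum enzyme-like protein whose level follows fat tissue expansion in mice, was read at 32.3, 28.3 and 40.7 CPM in knockout and 44.4, 39.6, 56.3 and 35.4 CPM in wild-type inguinal libraries. The highest knockout library exceeded 2 of the wild-type ones. Mest missed the threshold, at -0.36 (SE 0.16, edgeR adjusted p = 0.106), and its 95% interval ran from -0.67 to -0.05. Without wild-type library 4 or without knockout library 4 the adjusted p was 0.0492 and 0.0376. Copg2, a vesicle coat gene that lies tail to tail with Mest, had 59.3, 65.7 and 58.1 CPM in knockout and 61.9, 65.7, 64.3 and 62.8 CPM in wild type, and did not pass (log2 change -0.05, edgeR adjusted p = 0.707).

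Peg3 and Plagl1 are zinc finger transcription factors, and in mice PLAGL1 has been described as a regulator of other imprinted genes. Peg3 was read at 131, 161 and 180 CPM in knockout inguinal libraries and 166, 151, 201 and 151 CPM in wild type. Plagl1 was read at 34.0, 60.2 and 71.1 CPM in knockout and 55.5, 49.7, 47.3 and 63.6 CPM in wild type. Both genes overlapped between the groups, and neither passed, with log2 changes of -0.08 (SE 0.12, edgeR adjusted p = 0.676) and 0.04 (SE 0.21, edgeR adjusted p = 0.917). The 3 knockout libraries spread more widely for Plagl1 than the wild-type ones did, with a coefficient of variation of 34.6% and 13.4%.

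**Figure D3:**
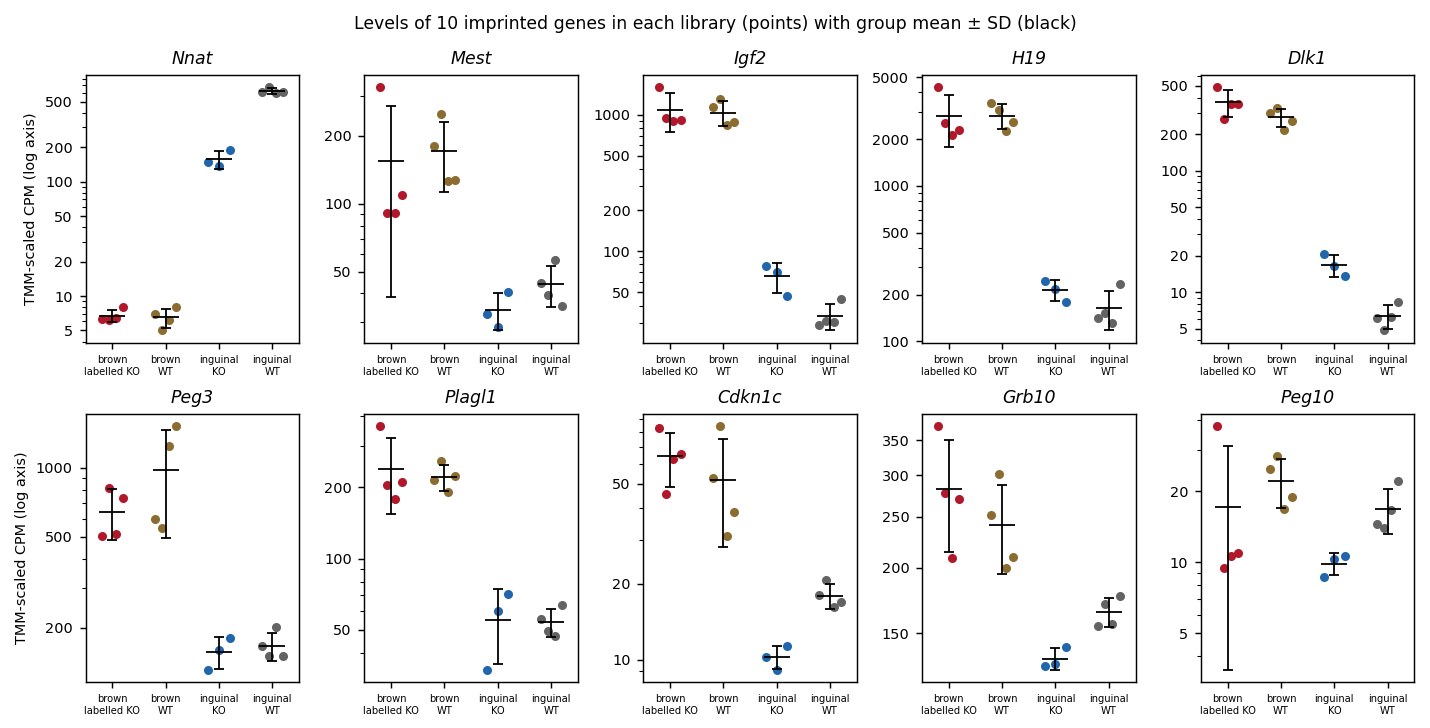
The TMM-scaled CPM of the 10 genes is shown on a log axis, with 1 point per library and the group mean and SD in black. Nnat alone is lowest in the brown libraries (5.01 to 8.02 CPM) and highest in wild-type inguinal fat (604 to 679 CPM), and Igf2, H19 and Dlk1 show the opposite order of depots.

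Neighbours of the 10 genes on the chromosome gave a mixed picture in knockout inguinal fat. Of 17 matched partner genes 13 were tested, of which 2 were higher (Meg3 and Zim1) and 3 lower (Blcap, Klf14 and Nctc1). Zim1, a zinc finger gene beside Peg3, had 6.57, 7.83 and 8.57 CPM in knockout and 4.15, 3.63, 5.57 and 2.76 CPM in wild type, and rose by 0.96 (SE 0.20, edgeR adjusted p = 0.00308). Klf14, a transcription factor gene in the Mest domain, fell by 1.79 (SE 0.38, edgeR adjusted p = 0.00318). Its levels were low, at 0.311, 0.202 and 0.501 CPM in knockout (9, 6 and 19 counts). In wild type they were 1.35, 1.30, 1.45 and 0.825 CPM. Nctc1, a non-coding transcript downstream of H19, fell by 2.89 (SE 0.71, edgeR adjusted p = 0.00806) from a level below 1 CPM in all wild-type libraries. Rtl1, a retrotransposon-derived gene of the Dlk1 cluster, stood at 1.17, 0.739 and 1.24 CPM in knockout and 1.19, 1.15, 1.53 and 1.02 CPM in wild type, overlapping (edgeR adjusted p = 0.673).

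A list of 58 other imprinted genes had 52 matches and 42 tested in inguinal fat. It includes several of the partner genes above, among them Meg3, Zim1, Blcap and Klf14, so it is not separate from them. In it 11 genes were higher and 7 lower, with a median log2 change of -0.05. Gatm, a creatine synthesis enzyme, fell to 12.2 ± 2.97 CPM in knockout, against 23.1 ± 3.06 CPM in wild type (SD, n = 3 and 4, edgeR adjusted p = 8.27e-04). Ndn, encoding the growth-restraining protein necdin, fell to 40.6 ± 1.29 CPM in knockout, against 59.7 ± 6.65 CPM in wild type (SD, n = 3 and 4, edgeR adjusted p = 0.00104).

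Igf2 acts with a set of receptors, binding proteins and related factors, of which 21 were tested in inguinal fat. Of these, 4 were higher in knockout (Igfbp3, Igf2bp2, Igf2r and Insr) and 6 lower (Igf1, Igfbp4, Igfbp5, Igfals, Stc2 and Htra1). Igfbp3, which carries IGFs in plasma, rose to 71.2 ± 2.14 CPM in knockout, against 31.2 ± 6.39 CPM in wild type (SD, n = 3 and 4, log2 change 1.20, edgeR adjusted p = 4.78e-05). Igf1, the postnatal growth factor of the pair, fell to 283 ± 52.5 CPM in knockout, against 564 ± 40.1 CPM in wild type (SD, n = 3 and 4, log2 change -0.98, edgeR adjusted p = 6.89e-05). Igf2r, the receptor that clears IGF2 and is itself imprinted, rose by 0.34 (SE 0.09, edgeR adjusted p = 0.0153). In a list of genes that decline as growth slows after birth, 18 were tested, and 2 were higher (Hmga1 and Sox4) and 4 lower (Ptn, Mdk, Tet1 and Kif4).

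Markers of some other cells moved with the knockout in inguinal fat. Skeletal muscle markers summed to 89.7 to 105 CPM in knockout and 196 to 509 CPM in wild-type libraries, with 16 of 20 tested lower and Tnnc2 at 0 in all knockout libraries. Neural and Schwann cell markers summed to 393 to 509 CPM in knockout and 606 to 700 CPM in wild type, with 2 higher and 3 lower of 9 tested and Th and Nefl at 0 in all knockout libraries. Adipose progenitor markers summed to 1892 to 2140 CPM in knockout and 2086 to 2577 CPM in wild type. These sums overlapped, with 5 of 16 markers lower and none at 0. Brown adipocyte markers were higher for 8 of 13 tested, and endothelial markers, at 1124 to 1254 CPM in knockout and 1290 to 1559 CPM in wild type, were lower for 6 of 11, with none at 0 in either list. Epithelial markers summed to 3.42 to 5.14 CPM in knockout and 7.32 to 16.1 CPM in wild type, with 1 of 3 tested lower and Krt5 and Csn2 at 0 in knockout. Developing muscle markers summed to 5.82 to 7.71 CPM in knockout and 10.6 to 17.0 CPM in wild type, with 3 of 4 tested lower and Myf5 and Chrng at 0 in wild type. Of 22 cell cycle genes 18 were lower. Like those of the adipose progenitor markers, the sums of the remaining lists overlapped between the groups. Macrophage markers summed to 429 to 542 CPM in knockout and 443 to 588 CPM in wild type, with 1 of 11 lower. White and general adipocyte markers summed to 38721 to 41787 CPM in knockout and 40328 to 41646 CPM in wild type, with 2 higher and 2 lower of 13. B and T cell markers summed to 13 to 30.4 CPM in knockout and 20.2 to 35.4 CPM in wild type, with 2 of 12 lower. In whole tissue, fewer cells of a type and less RNA per cell cannot be told apart, and the part of these markers in the levels of the imprinted genes was not tested.

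In newborn brown fat none of the 10 imprinted genes passed between labelled knockout and wild type by edgeR's test. At an unadjusted p below 0.05 edgeR also gave 0, where 2930 of all 15796 genes tested fell below it. At an adjusted p below 0.05 DESeq2 gave 0 and limma-voom 1, Peg10, where 1032 and 3127 of all genes passed. All 10 genes overlapped between the groups. By edgeR's adjusted test only 0.260% of the 15796 genes tested passed, and 9.74% of the genes tested did not overlap. The widest changes were -0.61 (SE 0.34, adjusted p = 0.366) for Peg3 and 0.41 (SE 0.19, adjusted p = 0.281) for Dlk1. The median over the 10 genes was 0.05, and 0.01 over all genes.

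Labelled knockout library 1 lay far from the other 3 for several of the genes. Of the 8 brown libraries it was the highest for 7 of the 10 genes: Mest, Igf2, H19, Dlk1, Plagl1, Grb10 and Peg10. The library also stood apart over all genes, as given above. How often it was the highest over all genes was not counted, so the 7 of 10 is not shown to be particular to the imprinted genes. Mest stood at 330, 91.2, 91.0 and 109 CPM in labelled knockout libraries 1 to 4, against 181, 250, 126 and 128 CPM in wild type. Peg10 stood at 37.8, 9.46, 10.7 and 11 CPM in labelled knockout, against 24.9, 28.2, 16.7 and 18.9 CPM in wild type. For both genes library 1 lay above all wild-type libraries and libraries 2 to 4 below all of them. Their log2 changes were -0.15 (SE 0.44, edgeR adjusted p = 0.885) for Mest and -0.37 (SE 0.44, edgeR adjusted p = 0.691) for Peg10. Without library 1 they were -0.82 (adjusted p = 0.0472) and -1.10 (adjusted p = 0.00423), in a comparison in which 8.41% of all tested genes passed as lower.

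Igf2 stood at 1600, 950, 891 and 909 CPM in labelled knockout and 1135, 1291, 833 and 885 CPM in wild-type brown libraries. H19 stood at 4358, 2549, 2114 and 2294 CPM in labelled knockout and 3427, 3076, 2257 and 2568 CPM in wild type. Library 1 was above all wild-type libraries for both genes, and libraries 2 to 4 lay within or, for 1 library of H19, below the wild-type range. Neither gene passed (log2 change 0.06 with SE 0.21 for Igf2 and -0.01 with SE 0.23 for H19, edgeR adjusted p = 0.9 and 0.988). Dlk1 stood at 493, 269, 356 and 352 CPM in labelled knockout and 301, 327, 216 and 258 CPM in wild type, with 3 labelled knockout libraries above all wild-type ones and library 2 among them.

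Peg3 was read at 502, 820, 515 and 742 CPM in labelled knockout and 597, 548, 1247 and 1525 CPM in wild-type brown libraries. Wild-type libraries 3 and 4 were high and libraries 1 and 2 were within the labelled knockout range. Cdkn1c was read at 83.5, 45.6, 62.4 and 65.4 CPM in labelled knockout and 52.8, 84.7, 31 and 38.8 CPM in wild type, with the highest and the lowest value both in wild type. Grb10 was read at 373, 277, 209 and 271 CPM in labelled knockout and 252, 302, 200 and 210 CPM in wild type. Plagl1 was read at 363, 204, 178 and 210 CPM in labelled knockout and 215, 258, 190 and 223 CPM in wild type. For both of these, libraries 2 to 4 of the labelled knockout fell among or just below the wild-type libraries. Nnat was low throughout, at 6.33, 6.18, 6.41 and 8.02 CPM in labelled knockout and 6.91, 5.01, 6.19 and 7.98 CPM in wild type.

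Library 1 also differed in its tissue markers. Its adipose progenitor markers summed to 1592 CPM, against 1072 to 1341 CPM in the other 7 brown libraries. Its white and general adipocyte markers summed to 17818 CPM, against 20137 to 22527 CPM, and its brown adipocyte markers to 5250 CPM, against 6415 to 10949 CPM. Its skeletal muscle markers, at 4997 CPM, lay inside the 2990 to 5074 CPM of the others. Epithelial markers summed to 221 CPM in labelled knockout library 4, against 2.25 to 4.51 CPM in the other 7 brown libraries. The part of these markers in the levels of the imprinted genes was not tested.

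**Figure D4:**
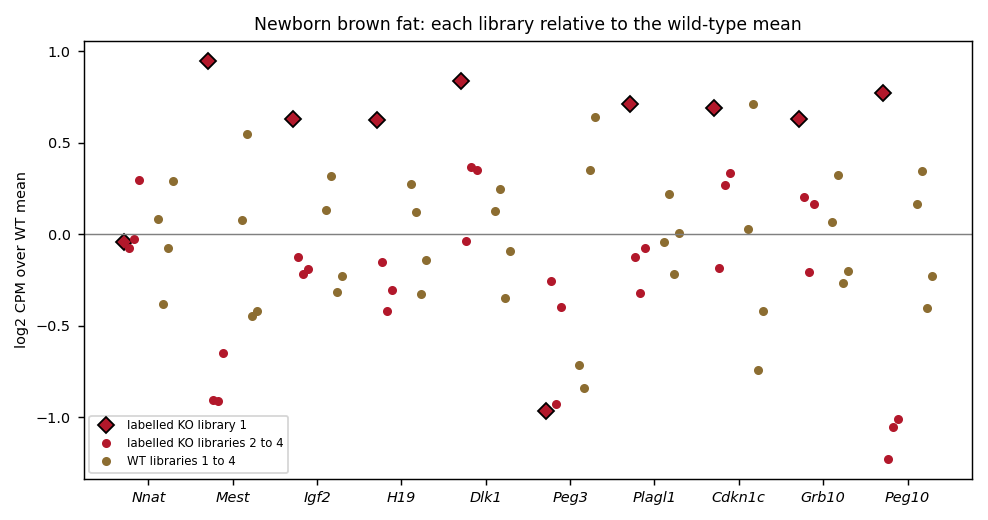
Each point is the log2 of the CPM of 1 newborn brown library over the wild-type mean, by gene, with labelled knockout libraries (red) left of wild-type libraries (brown). The outlined diamond is labelled knockout library 1, the highest of 8 libraries for 7 of the 10 genes and on the other side of the wild-type mean from libraries 2 to 4 for 5 of them: Mest, Igf2, H19, Plagl1 and Peg10. How often that library was the highest over all genes was not counted.

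Whether the knockout effect differed between the depots was tested as inguinal minus brown effect in 1 fit of all 15 libraries. Of the 10 genes, 1 passed in each direction, where 4.81% of the 16858 genes tested passed as higher and 4.20% as lower, 9.01% in all. Nnat passed with a difference of -2.03 (SE 0.20, edgeR adjusted p = 7.01e-05), from effects of -1.98 in inguinal and 0.04 in brown fat. Leaving out any 1 of the 15 libraries kept that difference between -2.17 and -1.93. Dlk1 passed with 0.98 (SE 0.29, edgeR adjusted p = 0.0446), from effects of 1.41 and 0.41. That call was lost in 11 of the 15 fits that left out 1 library, in which the adjusted p ranged from 0.00586 to 0.137. Igf2 (0.89, SE 0.32, edgeR adjusted p = 0.0937) and Cdkn1c (-1.12, SE 0.38, edgeR adjusted p = 0.0754) did not pass, so their call in inguinal fat and its absence in brown fat do not amount to a tested difference. Without labelled knockout brown library 1 the Igf2 difference was 1.15 (adjusted p = 0.00731), and without wild-type brown library 2 the Cdkn1c difference was -1.46 (adjusted p = 0.0056). Each of these 2 calls was gained in only 1 of the 15 fits that left out 1 library. The edgeR adjusted p in those fits reached 0.232 for Igf2 and 0.176 for Cdkn1c, and 632 to 3572 of all genes passed. Mest differed by -0.24 (SE 0.57, edgeR adjusted p = 0.83), and Grb10, H19, Peg3, Peg10 and Plagl1 did not pass either.

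Between wild-type newborn brown fat and wild-type weaning inguinal fat, 8 of the 10 genes were higher in brown fat, and Nnat alone was lower. Of all 15979 genes tested 61.4% passed, 30.7% in either direction, and 56.3% did not overlap, as did 9 of the 10. The order of the differences ran from the ligands and H19 at the top to Peg10 near 0. The inguinal wild-type libraries are those used in the knockout comparison above, so the values of the 2 comparisons are linked through them. Muscle markers, among others, also differed between these groups. Skeletal muscle markers summed to 2990 to 5074 CPM in brown and 196 to 509 CPM in inguinal wild type. Of 20 tested, 18 were higher and 2 lower in brown fat. Developing muscle markers summed to 1038 to 1839 CPM in brown and 10.6 to 17.0 CPM in inguinal wild type. All 12 were higher in brown fat. The part of muscle RNA in the levels of the imprinted genes was not tested.

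Dlk1 averaged 276 ± 48.6 CPM in brown and 6.36 ± 1.44 CPM in inguinal wild type (SD, n = 4 each), a log2 difference of 5.43 (SE 0.20, edgeR adjusted p = 3.05e-08). Igf2 averaged 1036 ± 215 CPM in brown and 33.6 ± 7.21 CPM in inguinal fat, a difference of 4.95 (SE 0.21, edgeR adjusted p = 4.34e-08). H19 averaged 2832 ± 521 CPM in brown and 165 ± 47.2 CPM in inguinal fat, a difference of 4.10 (SE 0.22, edgeR adjusted p = 2.86e-07). These 3 genes, the 2 ligands and the non-coding neighbour of one of them, formed the upper end. Peg3 (2.55), Plagl1 (2.03), Mest (1.97) and Cdkn1c (1.53) followed, with edgeR adjusted p-values from 5.92e-08 for Plagl1 to 0.00316 for Cdkn1c. Grb10 was higher by 0.55 (SE 0.12, edgeR adjusted p = 0.00203). Peg10 differed by 0.39 (SE 0.19, edgeR adjusted p = 0.102), passing only without wild-type brown library 3 (0.0368) or wild-type inguinal library 4 (0.0215). Nnat averaged 6.52 ± 1.25 CPM in brown and 626 ± 35.8 CPM in inguinal wild type (SD, n = 4 each), a log2 difference of -6.58 (SE 0.14, edgeR adjusted p = 4.70e-11).

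**Figure D5:**
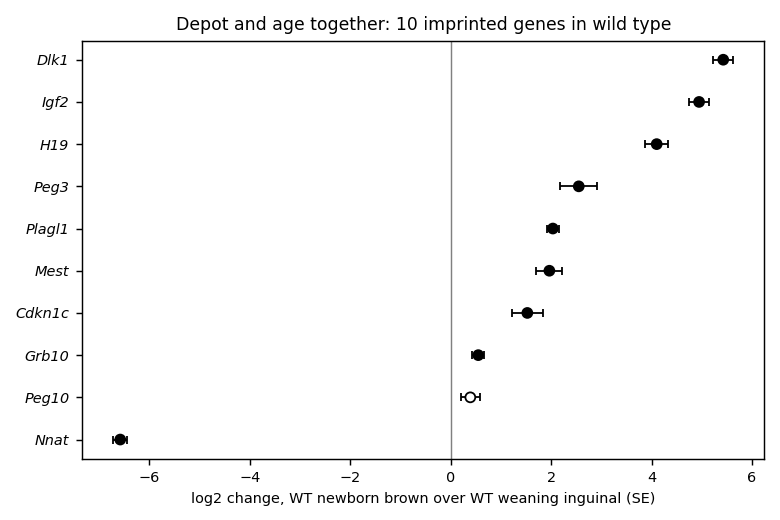
The log2 change of each gene between wild-type newborn brown and wild-type weaning inguinal fat (4 libraries each, bars show SE) is ordered from high to low. Filled points passed at an adjusted p below 0.05, and 8 lie to the right of 0, from 0.55 for Grb10 to 5.43 for Dlk1, with Nnat at -6.58 on the left and Peg10 open at 0.39.

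Across all 4 groups, 8 genes had both brown groups above both inguinal groups without overlap, an order that followed depot and age together. How many of all genes show that order was not counted. Between the wild-type groups of the 2 depots alone, 56.3% of all 15979 genes tested did not overlap, in either direction. Labelled knockout and wild-type brown libraries overlapped for all 10. For Igf2 and Dlk1 knockout inguinal fat came next and wild-type inguinal fat last, without overlap. For Cdkn1c and Grb10 wild-type inguinal fat came next and knockout inguinal fat last, also without overlap. For Mest, H19, Peg3 and Plagl1 the 2 inguinal groups overlapped. Peg10 kept the same order but overlapped between labelled knockout brown and wild-type inguinal fat, and Nnat ran from wild-type inguinal down through knockout inguinal to brown fat.

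Levels of different genes were compared per kilobase of exon, with exon lengths from a later genome build than the counts. H19 was the highest of the 10 in brown fat, at 1150 CPM per kilobase in labelled knockout and 1151 in wild type, followed by Igf2 at 190 and 181. In inguinal fat Nnat was the second at 86.2 CPM per kilobase in knockout, level with H19 at 87.0, and the first at 342 in wild type, where H19 was at 67.0. Dlk1 was the third in labelled knockout brown fat at 65.0 CPM per kilobase and the fourth in wild-type brown fat at 48.7, and in inguinal fat it stood at 2.98 in knockout and, lowest of the 10, at 1.12 in wild type.

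The genes whose levels ran closest to Nnat and Mest were found by the mean absolute difference in log2 CPM over the 15 libraries, after centring each gene, among 14608 genes. For Nnat they included Mup3 (0.44), Dusp15 (0.49), Ugt8a (0.54) and Mmp3 (0.54). Dusp15, a dual-specificity phosphatase gene, had 5.54 ± 0.96 CPM in knockout and 10.4 ± 1.25 CPM in wild-type inguinal libraries (SD, n = 3 and 4), and fell there by 0.89 (edgeR adjusted p = 7.70e-04). Mup3 belongs to a family of near-identical genes, so its counts are uncertain. For Mest they were Gprasp2 (0.26), Srpk3 (0.27), Ptn (0.27), Tpm1 (0.28) and Ldb3 (0.29). Ptn, the growth factor pleiotrophin, averaged 17.7 ± 13.9 CPM in labelled knockout and 15.1 ± 4.83 CPM in wild-type brown fat (SD, n = 4 each). The 15 libraries come from 2 depots, and the depot gap of each gene enters the measure.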

How the data were processed

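RNA was extracted from homogenised fat and made into libraries with a stranded mRNA kit, per the labels' protocols. The authors deposited 1 table of raw counts per gene for the 15 libraries. Per the submitters' processing notes, the build was mm9 and the tools included TopHat2 2.1.0, featureCounts from Subread and edgeR; annotation release and strand setting: not given in the sources used here. Totals per library ran from 26059635 to 53923009 counts, and each of the 10 genes had at least 961 counts summed over any group. Of 37991 identifiers 32919 matched a symbol. Exon lengths came from GENCODE M21 on GRCm38, which is not the build of the counts.

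Genes were kept by filterByExpr (minimum count 10) and tested with edgeR 4.0.16 in R 4.3.3: TMM scaling, robust quasi-likelihood F-test, Benjamini-Hochberg over all genes, threshold 0.05, with the SE derived from the log2 change and F. CPM were scaled over all 15 libraries, on 16858 genes. Ratios used 1 added count and a two-sided exact permutation test. No 2 libraries agreed within sampling noise. The script was tested on simulated data. Alternatives used DESeq2 1.42.0, limma 3.58.1 (voom), other filters and scalings, and left out each library in turn. The 10 genes were always named, with Il33 and their chromosomal partners; from other lists up to 3 genes by smallest p, with further genes of a list that passed named after their values were seen; for likeness the 5 closest genes. The members and all lists were chosen with earlier results of these data known. One gene among those closest to Nnat is not reported here.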

Additional observations from a re-analysis of the deposited data

Results flagged for a closer look

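Across 30 combinations of a gene and a group of 4 libraries, 6 held a library that stood far from the other 3. The cut-off is set to flag about 1 in 20 by chance when combinations are independent. These combinations are not independent, because the genes were read in the same libraries and several flags fell on the same library. The rate over all genes was not counted, so the 6 of 30 cannot be set against chance. In the labelled knockout brown group, library 1 was far above the rest for Mest, at 330 CPM against 91.0 to 109, for Igf2, at 1600 CPM against 891 to 950, and for Peg10, at 37.8 CPM against 9.46 to 11. In the same group library 4 was far above the rest for Nnat, at 8.02 CPM against 6.18 to 6.41. In wild-type inguinal fat, library 2 was far above the rest for Nnat, at 679 CPM against 604 to 611, and library 4 for Igf2, at 44.3 CPM against 29.0 to 30.6.

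The knockout effect differed between the depots for 2 of the 10 genes, where 9.01% of all 16858 genes tested passed. For Nnat it was lower in inguinal than in brown fat by a log2 difference of -2.03 (SE 0.20, edgeR adjusted p = 7.01e-05), and every knockout inguinal library lay below every wild-type one. For Dlk1 it was higher in inguinal fat by 0.983 (SE 0.29, edgeR adjusted p = 0.0446), a call that 11 of 15 fits without 1 library did not keep.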

How the results depend on the processing

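Counts over all genes moved most in brown fat, where 41 genes passed. That count was 67 without a count filter, 1032 with DESeq2, 1149 when all 4 groups were fitted together, 3127 with limma-voom and from 2 to 2905 when 1 library was left out. Of the 10 imprinted genes 0 passed there, against 1 with limma-voom (Peg10, adjusted p = 0.0241) and 0 to 2 without 1 library. The inguinal count was 4498 and became 2249 with all 4 groups in 1 fit, where 3 rather than 6 of the 10 genes passed, and 3274 to 4719 without 1 library, with 5 to 7 of the 10. For the difference between depots, 1519 genes passed, against 2330 with DESeq2, 3696 with limma-voom and 632 to 3572 without 1 library, and 2 of the 10 genes passed, against 1 with no filter (Dlk1 lost, adjusted p = 0.0665), 4 with limma-voom and 1 to 3 without 1 library. The brown Dlk1 to Meg3 difference of 0.43 ran from 0.336 to 0.555 without 1 library. Same-numbered deviations correlated weakly, at -0.0359 to 0.141 in brown and -0.0721 to 0.0332 in inguinal fat. Of the knockout libraries, 3 of 4 in brown and 0 of 3 in inguinal fat correlated best with their own number. Whether replicate numbers pair the libraries was therefore not settled in brown fat. With the replicate number as a block, 7 genes passed in brown fat and 859 for the difference, of which 1 of the 10, Dlk1 (adjusted p = 0.116) dropping out, and Igf2 in inguinal fat had an adjusted p of 0.137. With limma-voom 5 log2 values turned sign, none of them past the threshold: brown Igf2 (-0.066) and Plagl1 (-0.087), and the differences of Mest (0.20), Plagl1 (0.24) and Peg10 (0.22). Without 1 library, 10 log2 values spanned 0. In brown fat these were Nnat (-0.071 to 0.15), Mest (-0.82 to 0.090), Igf2 (-0.18 to 0.18), H19 (-0.29 to 0.10) and Plagl1 (-0.18 to 0.21). In inguinal fat they were Peg3 (-0.17 to 0.032) and Plagl1 (-0.18 to 0.29), and for the difference Mest (-0.48 to 0.45), Plagl1 (-0.29 to 0.21) and Peg10 (-0.61 to 0.33). The cause of these shifts was not tested. Over the settings other than leaving out a library, 335 values of the 10 genes kept direction and side of the threshold, 6 lost their call, 4 gained one and 5 turned sign. Limits: each group holds 3 or 4 libraries, 1 brown library stands apart and another is high in epithelial markers. The brown labels are unsettled by Il33, depot and age are confounded, and counts carry no allele.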
